A study of Mus musculus with 5 samples.

Results

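Laminins are the chains from which the cell-binding network of every basement membrane is built, and 9 laminin genes were described here across the cells of the mouse ovary: the alpha chain genes Lama1, Lama2, Lama3, Lama4 and Lama5, the beta chain genes Lamb1 and Lamb2, and the gamma chain genes Lamc1 and Lamc3. The members were chosen by name and found by their symbol in the gene list that all matrices share, where each of the 9 had 1 row among 31053 genes. Single-cell RNA sequencing was done on dissociated ovaries of untreated C57BL6/J mice of 5 ages, with 1 library each at 2, 3, 4, 5 and 6 wk. The ovaries were dissociated with trypsin, live cells were sorted as cells that excluded the dye SYTOX Orange, and 10x Genomics kits of version 3.1 gave libraries that count each captured RNA molecule once by its unique molecular identifier (UMI) near the 3′ end of the transcript. How many mice gave each library is not given in the sources used here, and an age has no replicate, so a spread below is one between libraries of different ages. The study asks what becomes in juvenile mice of the first wave of follicles, which starts to grow at about birth.

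A laminin is a trimer of 1 alpha, 1 beta and 1 gamma chain that is assembled inside the cell and secreted. Outside the cell many trimers polymerize, and integrins and dystroglycan hold trimers on the cell surface. Nidogens, perlecan and agrin tie trimers to the collagen IV network. In the ovary a basement membrane surrounds the granulosa cells of each follicle and separates them from the theca, and others lie under the surface epithelium and around blood vessels and smooth muscle cells. The alpha chain sets most of the binding to receptors. Lamb1 or Lamb2 can be the beta chain of a trimer, and Lamc1 is the gamma chain of most known laminins.

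At 2, 3, 4, 5 and 6 wk, 9471, 9253, 11077, 7779 and 10583 cells were deposited, with total UMIs between 93438618 and 144609431 and median UMIs per cell between 9056 and 12424. Of 48163 cells, 273 carried a barcode that another library also held. The matrices at 2, 3 and 4 wk were made with Cell Ranger 3.1.0 and those at 5 and 6 wk with Cell Ranger 6.0.1, so the version and the age cannot be told apart. Cells were clustered again with every laminin gene left out of the genes that shape the clusters, and clusters were named from marker lists. The name "-like" says that a group carries the markers of a type. The first clustering gave 18721 granulosa-like, 12979 stromal-like, 5065 smooth muscle-like, 1261 theca-like, 853 pericyte-like, 712 blood endothelial-like, 224 lymphatic endothelial-like, 493 hematopoietic-like, 322 surface epithelial-like and 90 rete ovarii-like cells. Another 7443 cells in 5 clusters stayed unnamed, mostly for low UMI counts. Granulosa-like cells split into primary-like, antral-like, remodeling-like, S phase and mitotic groups, and the mesenchymal cells (theca-like, stromal-like and smooth muscle-like) into Cd24a+, Col11a1+, Col14a1+, Cxcl12+, Hoxd9+ and Tagln+ subtypes, early theca-like, steroidogenic theca-like, S phase and mitotic groups. In this second clustering 3429 granulosa-like cells in 7 clusters and 917 mesenchymal cells in 3 clusters stayed unnamed and were given no level. No cluster met the rule for a primordial or a secondary granulosa group, and none was named germ cell-like. Levels are in CPM, which scales a group's UMIs in each library to a common total, and are given for libraries with at least 20 cells of the group. Because the chemistry tags transcripts at their 3′ end, CPM was not divided by length. Laminin RNA from broken cells can give UMIs in any droplet, so the hematopoietic-like cells, blood cells that make little laminin, are given beside low levels as the background.

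Lamb1 was the most abundant member, with 67216 UMIs over all cells, and Lama3 and Lama5 were the rarest, with 2011 and 2119 UMIs. All 9 members had UMIs in all 5 libraries. Summed over the chains, laminin RNA was highest in Cd24a+ cells, a mesenchymal subtype, and lowest in granulosa-like and hematopoietic-like cells. The sum over the 9 chains and Lamb3 was 948 ± 90.5 CPM in Cd24a+ cells, 771 ± 63.8 CPM in pericyte-like cells, 746 ± 63.9 CPM in early theca-like cells and 724 ± 149 CPM in blood endothelial-like cells (mean ± SD, n = 5 libraries). In primary-like granulosa cells it was 175 ± 12.6 CPM, and in hematopoietic-like cells 128 ± 42.6 CPM. By level, Lama1 led the alpha chains in granulosa-like cells, Lama2 in mesenchymal cells and Lama4 in endothelial-like cells. Lamb1 led the beta chains in mesenchymal and endothelial-like cells, and in granulosa-like cells Lamb1 was 28.6 ± 5.01 CPM and Lamb2 26.8 ± 4.08 CPM.

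**Figure D1:**
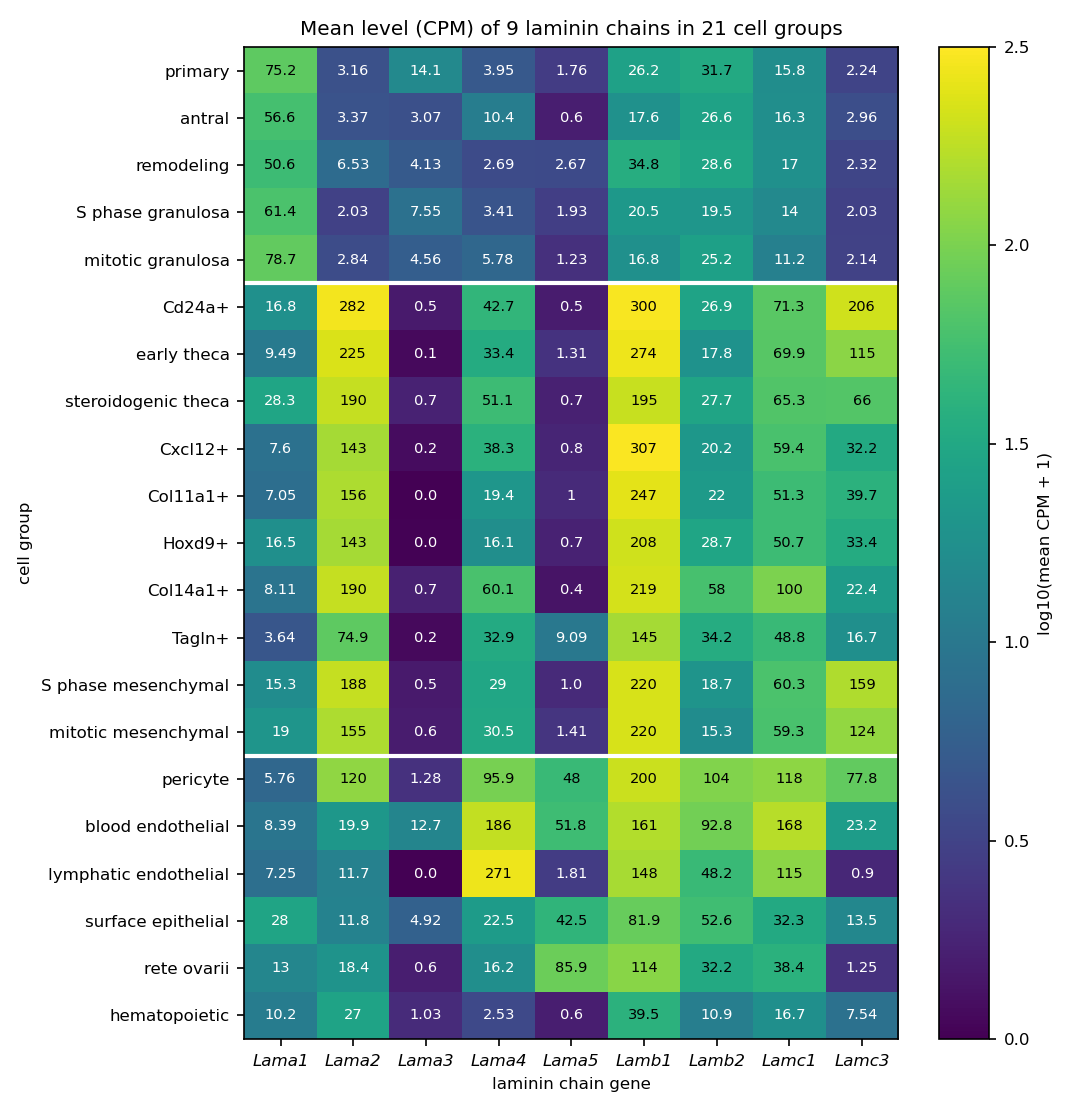
Mean level of each laminin chain gene in the 21 named cell groups. Rows are cell groups and columns are genes, the number in each cell is the mean CPM over libraries with at least 20 cells of the group, and colour is log10 of the mean CPM + 1. The upper block (granulosa) is high in Lama1, the middle block (mesenchymal) in Lama2 and Lamb1, and the lower block (vessels, epithelia and blood cells) holds the highest levels of Lama4, Lama5, Lamb2 and Lamc1.

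Lama1 (ENSMUSG00000032796, chr17:67697259-67822647, + strand in GRCm38) encodes an alpha chain known from early embryos and developing epithelia. It was the main alpha chain of granulosa-like cells, which held 76.8% of its UMIs. In primary-like cells the level was 63.8, 72.1, 94.5, 74.7 and 71 CPM at 2, 3, 4, 5 and 6 wk. In mitotic granulosa cells it was 71.3, 72.8, 93.2, 80.1 and 75.9 CPM, the highest group mean at 78.7 ± 8.79 CPM (SD, n = 5 libraries). These groups overlapped, and primary-like cells were lower in 4 of 5 libraries. Among cells outside the follicle, steroidogenic theca-like cells carried 32.9, 20.4, 25.8, 38.6 and 23.8 CPM and surface epithelial-like cells 26.4, 38.6, 28.2, 26.1 and 20.8 CPM. Every library of both groups exceeded all libraries of hematopoietic-like cells, which had 13.1, 12.6, 8.14, 9.08 and 7.8 CPM. After cells were thinned to 2000 UMIs each, 18.2% (16.3 to 20.2) of mitotic granulosa cells and 12.2% (11.2 to 13.2) of primary-like cells kept a Lama1 UMI (95% exact binomial interval), against 0.247% (0.00625 to 1.37) of hematopoietic-like cells. Such intervals cover counting error only. Unthinned, the shares were 68.9%, 56.2% and 4.87%, at median depths of 21599, 13463 and 6692 UMIs per cell.

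Lama2 (ENSMUSG00000019899, chr10:26980036-27619758, - strand) encodes the alpha chain of merosin, the laminin of muscle and nerve, and 65.4% of its UMIs lay in stromal-like cells. Cd24a+ cells were highest, with 291, 239.9, 310.2, 297 and 273 CPM at 2, 3, 4, 5 and 6 wk. Early theca-like cells followed with 249, 214, 243, 214 and 205 CPM and were lower than Cd24a+ cells in 5 of 5 libraries, although the ranges overlapped. Lama2 was lowest among mesenchymal groups in the Tagln+ cells, the smooth muscle-like subtype, with 123, 92.2, 63.8, 42.9 and 52.4 CPM. In the 5 granulosa groups the means were only 2.03 to 6.53 CPM, below the 27.04 ± 11.2 CPM of hematopoietic-like cells, and were read as background. The thinned share of cells with a UMI was 42.6% (40.2 to 45.1) in Cd24a+ cells and 0.861% (0.61 to 1.18) in primary-like cells, against 2.22% (1.02 to 4.18) in hematopoietic-like cells.

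Lama3 (ENSMUSG00000024421, chromosome 18) encodes the alpha chain of the laminin that anchors skin epithelium, and was a rare transcript with its maximum in primary-like granulosa cells. It measured 3.93, 16.3, 14.8, 19.3 and 16.3 CPM there, so 4 libraries lay above the 2 wk library. Blood endothelial-like cells came next with 26.2, 3.1, 8.43, 15.9 and 10.1 CPM, with a spread wider than the difference to primary-like cells. In lymphatic endothelial-like cells, and in Col11a1+ cells, no library with at least 20 cells of the group held a Lama3 UMI. A count of 0 allows up to 3 UMIs, or 1.42 CPM over the lymphatic group. Of primary-like cells 2.51% (2.07 to 3.02) and of blood endothelial-like cells 2.46% (1.35 to 4.09) kept a Lama3 UMI after thinning, and 0 of 405 hematopoietic-like cells kept a Lama3 UMI, which allows a share of up to 0.741%.

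Lama4 (ENSMUSG00000019846, chr10:38965515-39110188, + strand) encodes an alpha chain known from vessel walls, and its level was highest in endothelial-like cells. In lymphatic endothelial-like cells it measured 266, 336, 273 and 208 CPM in the 4 libraries with at least 20 such cells (2, 3, 4 and 5 wk). In blood endothelial-like cells it measured 177, 251, 175, 144 and 181 CPM and in pericyte-like cells 91.7, 119, 104, 81.1 and 83.1 CPM. All blood endothelial-like libraries lay above all pericyte-like libraries. Mesenchymal groups ranged from 16.1 CPM in Hoxd9+ cells to 60.1 CPM in Col14a1+ cells. Granulosa groups had means of 2.69 to 10.4 CPM, the highest in antral-like cells, where hematopoietic-like cells had 2.53 ± 1.25 CPM. Although stromal-like cells had a lower level, they were many and held 34.6% of all Lama4 UMIs, more than the 10.99% in blood endothelial-like cells.

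Lama5 (ENSMUSG00000015647, chr2:180176373-180225859, - strand) encodes an alpha chain found under mature epithelia and in vessel walls. It was high in blood endothelial-like, pericyte-like, surface epithelial-like and rete ovarii-like cells and low in lymphatic endothelial-like cells and in mesenchymal groups other than Tagln+ cells. Rete ovarii-like cells, which come from the tubules at the ovarian hilum, had 82.3 and 89.5 CPM in the 2 libraries that held enough of them (2 and 3 wk). Blood endothelial-like cells had 78.5, 74.4, 40.4, 35.7 and 29.8 CPM, pericyte-like cells 65.4, 69.7, 44.9, 31.96 and 28.2 CPM and surface epithelial-like cells 39.2, 65.3, 45.1, 30.9 and 32.2 CPM. These 3 groups overlapped, and each of their libraries lay above all libraries of the Tagln+ cells, which had 9.91, 10.3, 8.12, 10.8 and 6.34 CPM. The remaining 16 groups had means of 0.356 to 2.67 CPM, and the hematopoietic-like cells among them ranged from 0 to 1.73 CPM. The numerous granulosa-like cells held 24.4% of its UMIs at a level of 1.73 ± 0.418 CPM. The thinned share was 20% (12.3 to 29.8) in rete ovarii-like cells, 9.34% (7.37 to 11.6) in pericyte-like cells and 2.15% (1.73 to 2.65) in Tagln+ cells, against 0.247% (0.00625 to 1.37) in hematopoietic-like cells.

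The promoter of Lama5 is shown because this member was above the background in groups of unrelated kinds (blood endothelial-like, pericyte-like, epithelial and muscle-like cells). The 250 bases before its start (chr2:180225860-180226109, - strand, GRCm38.p6, RefSeq) are written 5′ to 3′ in lower case, with GC boxes (GGGCGG, or CCGCCC on the other strand, the letters bound by Sp1-type factors) in capitals.
Lama5: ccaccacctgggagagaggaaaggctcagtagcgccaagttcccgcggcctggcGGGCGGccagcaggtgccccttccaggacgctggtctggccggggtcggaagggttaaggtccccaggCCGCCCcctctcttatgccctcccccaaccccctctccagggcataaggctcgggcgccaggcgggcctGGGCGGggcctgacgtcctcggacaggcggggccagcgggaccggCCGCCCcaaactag
This window held 4 GC boxes and 19 CpG pairs, where the median window held 6 CpG pairs. GC boxes are common, and 32.7% of 32817 promoter windows of that length held at least 1. Of the 4 members with a window in the table (Lama2, Lama5, Lamb1 and Lamb2), Lama5 and Lamb1 held at least 1 and Lama2 and Lamb2 held none. A match describes letters only, and no binding was measured.

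**Figure D2:**
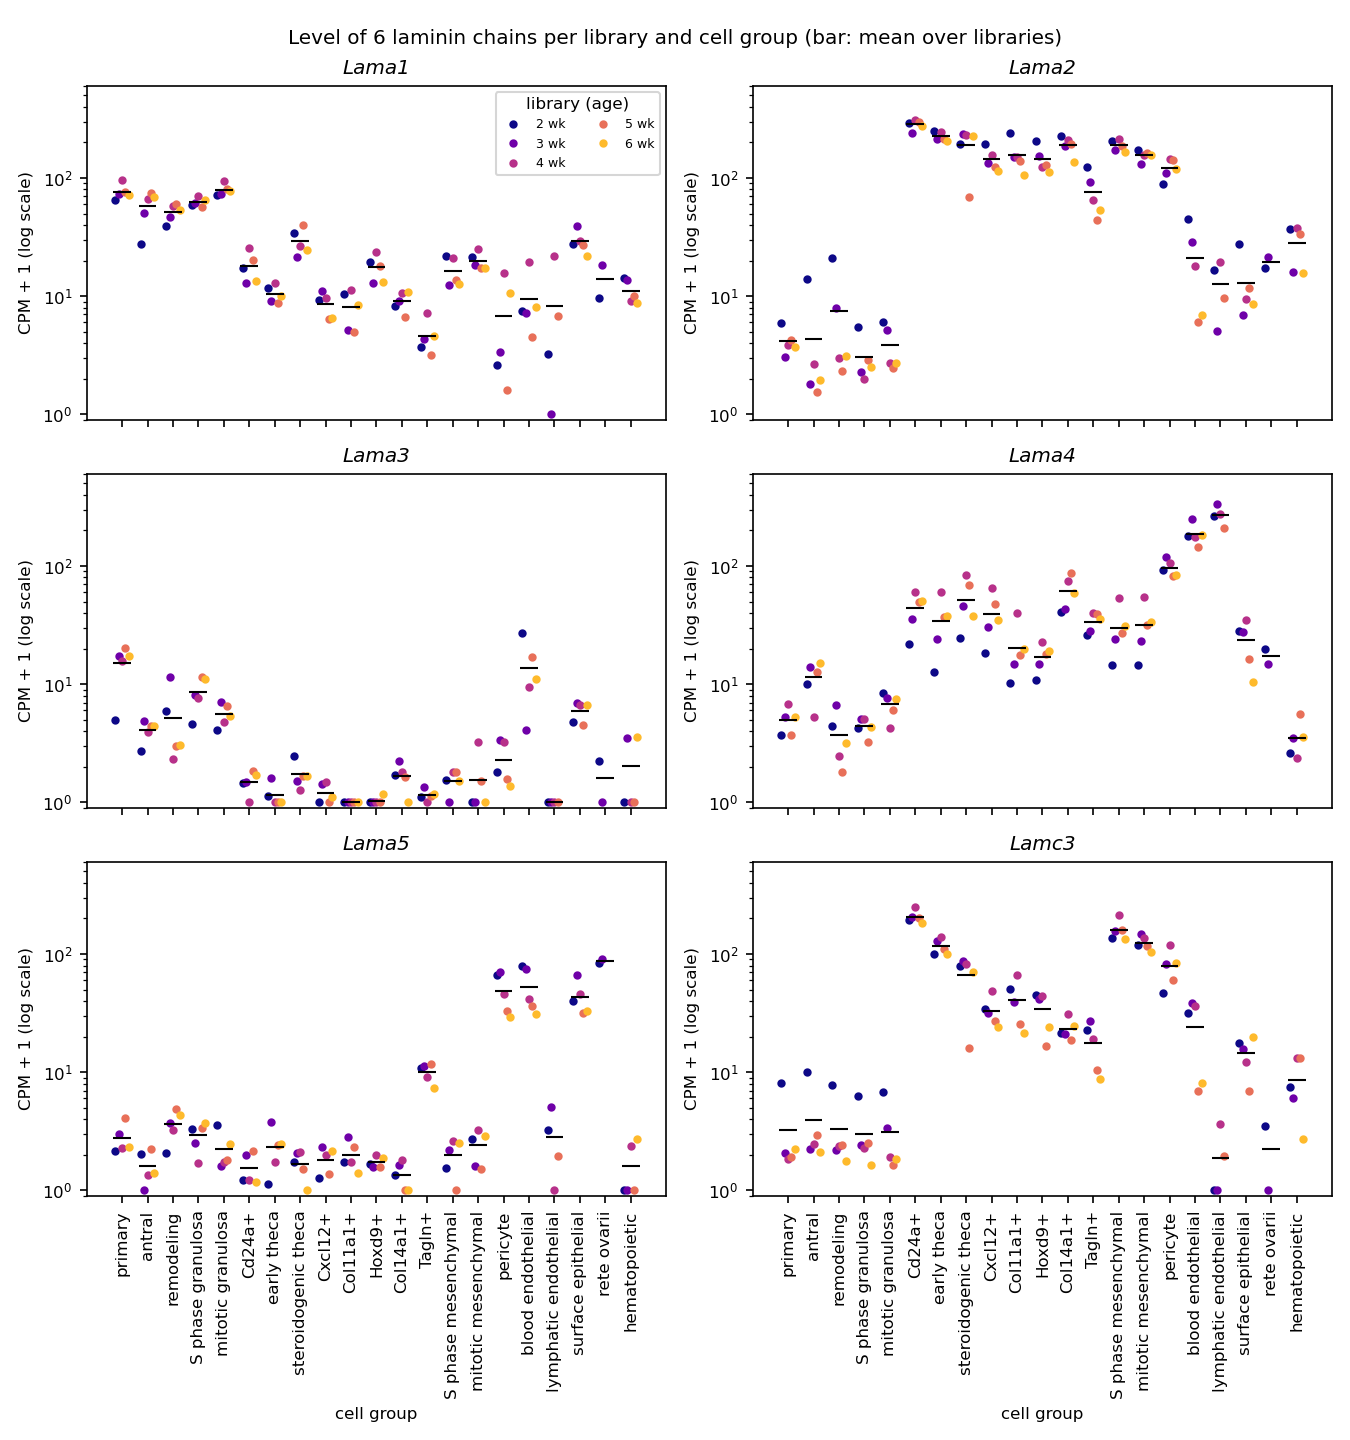
Levels of 6 laminin chain genes in each library. Each point is 1 library, coloured by age, the x axis gives the cell group, the y axis gives CPM + 1 on a log scale and bars give the mean over libraries. The Lama5 points of rete ovarii, blood endothelial, pericyte and surface epithelial cells lie above those of all other groups, and the 5 wk point of Lama2 and Lamc3 in steroidogenic theca cells lies below the other 4 ages.

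Of the beta chain genes, Lamb1 (ENSMUSG00000002900, chr12:31265234-31329644, + strand) encodes the beta chain of most laminins of developing tissue. By mean over libraries it was the most abundant member in all mesenchymal groups. Lama2 was higher than Lamb1 at 3 and 4 wk in steroidogenic theca-like cells (means 190 and 195 CPM) and at 2 and 5 wk in Cd24a+ cells. Its level was 355, 274, 314, 291 and 298 CPM in Cxcl12+ cells and 279, 271, 347, 297 and 309 CPM in Cd24a+ cells, the highest groups, and which of them was higher differed between libraries. The 10 mesenchymal groups had means from 145 CPM in Tagln+ cells to 307 CPM in Cxcl12+ cells. Pericyte-like, blood endothelial-like and lymphatic endothelial-like cells had means of 199.6, 161 and 148 CPM. Granulosa groups had 16.8 to 34.8 CPM. These means were below the 39.5 ± 23.3 CPM of hematopoietic-like cells, so Lamb1 UMIs of granulosa-like cells cannot be told apart from background by level alone. The thinned shares gave another order, 6.85% (6.17 to 7.57) in remodeling-like cells, 5.26% (4.62 to 5.96) in primary-like cells and 3.46% (1.9 to 5.73) in hematopoietic-like cells, so no order was read from them.

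Lamb2 (ENSMUSG00000052911, chr9:108479736-108490530, + strand) encodes a beta chain known from the synapse and the kidney filter. It was highest in the vessel wall, with 121, 126, 116, 90.5 and 67.3 CPM in pericyte-like cells and 116, 96.1, 119.6, 70.97 and 61.5 CPM in blood endothelial-like cells, 2 groups that overlapped. Col14a1+ cells, which carry markers of adventitial fibroblasts, had 57.2, 66.1, 71.9, 53.7 and 41.1 CPM. In primary-like granulosa cells the level was 34.1, 33.1, 37.9, 26.9 and 26.7 CPM, above the 10.9 ± 5.59 CPM of hematopoietic-like cells in 5 of 5 libraries. Granulosa-like cells held 46.8% of all Lamb2 UMIs, the largest part of any lineage.

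Of the gamma chain genes, Lamc1 (ENSMUSG00000026478, chr1:153218922-153332786, - strand) encodes the chain shared by most laminins. It was highest in blood endothelial-like cells, with 212, 198, 128, 144 and 160.0 CPM. Pericyte-like cells followed with 138, 105, 101, 129 and 119 CPM, lymphatic endothelial-like cells with 153, 89.1, 89.3 and 129 CPM (4 libraries) and Col14a1+ cells with 114, 79.9, 72.7, 136 and 97.8 CPM. Neighbours in this order overlapped, and blood endothelial-like cells were above pericyte-like cells in 5 of 5 libraries. The other 9 mesenchymal groups had means of 48.8 to 71.3 CPM. Granulosa groups had 11.2 to 16.99 CPM, next to 16.7 ± 8.45 CPM in hematopoietic-like cells. Granulosa-like cells held 4821 Lamc1 UMIs in 18721 cells, and hematopoietic-like cells 74 in 493. As depth per cell differed, Lamc1 UMIs of granulosa-like cells cannot be told apart from background by level alone.

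Lamc3 (ENSMUSG00000026840, chr2:31887291-31946539, + strand) encodes a less widely used gamma chain and separated the mesenchymal groups, with means from 16.7 to 206 CPM. In Cd24a+ cells its level was 194, 203, 248, 202 and 181 CPM, and in early theca-like cells 98.9, 127, 139, 110.2 and 99.7 CPM. Dividing mesenchymal cells had 159 ± 33.1 CPM in the S phase group and 124 ± 18.2 CPM in the mitotic group. At the low end, Col14a1+ cells had 20.7, 20.1, 29.9, 17.7 and 23.5 CPM and Tagln+ cells 21.96, 26.2, 17.9, 9.45 and 7.79 CPM. Pericyte-like cells had 77.8 ± 27.9 CPM and blood endothelial-like cells 23.2 ± 15.5 CPM. At 5 and 6 wk the blood endothelial-like levels were 5.88 and 7.16 CPM, within the 1.73 to 12.2 CPM of hematopoietic-like cells. Granulosa groups had 2.03 to 2.96 CPM, below the 7.54 ± 4.57 CPM of hematopoietic-like cells, and were read as background. The thinned share of cells with a Lamc3 UMI was 32.2% (29.99 to 34.6) in Cd24a+ cells, 2.7% (2.22 to 3.25) in Tagln+ cells and 1.23% (0.402 to 2.86) in hematopoietic-like cells. Lamb3, which encodes the beta partner of the Lama3 chain and is not among the 9 chains, had 178 UMIs in all. Of these, 40 were in hematopoietic-like cells, at 11.8 ± 9.2 CPM, so these cells are not a background for Lamb3.

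Since a laminin takes 1 chain of each type, the share of each gene in the UMIs of its chain type, summed over the 9 chains and Lamb3, was computed for every group, with 95% exact binomial intervals. Lama1 gave 77.7% to 85.9% of alpha chain UMIs in the 5 granulosa groups, and Lama2 61.2% to 87.2% in the 10 mesenchymal groups. Among lymphatic endothelial-like cells Lama4 gave 92.6% (90.1 to 94.6). Blood endothelial-like cells had 68.97% (66.9 to 70.99) Lama4 and 17.5% (15.9 to 19.2) Lama5. Pericyte-like cells were mixed, with 46.2% (43.9 to 48.4) Lama2, 34.9% (32.8 to 37.1) Lama4 and 16.3% (14.6 to 18.01) Lama5. Lama5 was the leading alpha chain in rete ovarii-like cells at 64.3% (55.9 to 72.2) and in surface epithelial-like cells at 36.2% (31.3 to 41.4).

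Among beta chain UMIs, Lamb2 gave 42.4% to 58.96% in granulosa groups and Lamb1 gave 78.5% to 93.9% in mesenchymal groups. Of the UMIs of Lamc1 and Lamc3 together, Lamc3 led in Cd24a+ cells at 73.9% (72.8 to 74.98), in early theca-like cells at 61.7% (60.3 to 63.1) and in the S phase and mitotic mesenchymal groups at 72.6% (70.7 to 74.4) and 66.4% (64.3 to 68.5). Lamc1 gave the larger share in every library of Col14a1+ and Tagln+ cells, of all granulosa groups and of both endothelial groups. In Cxcl12+, Col11a1+, Hoxd9+, steroidogenic theca-like and pericyte-like cells Lamc1 led in the summed UMIs, at 66.6%, 58.4%, 61.2%, 57.6% and 61.5%, but its share in the lowest library was 50%, 39.2%, 42.5%, 39.4% and 45.9%. In steroidogenic theca-like cells the lead rested on the 5 wk library, without which Lamc1 gave 45.2%, and the mean levels were 65.3 ± 6.59 CPM for Lamc1 and 66.02 ± 29.2 CPM for Lamc3. In hematopoietic-like cells Lama2 gave 66.1% (58.5 to 73.1) of the few alpha chain UMIs, unlike the alpha chain shares of granulosa groups, which Lama1 led. Lamb1 gave 67.1% (60.7 to 73.03) of beta chain UMIs and Lamc1 69.2% (59.5 to 77.7) of Lamc1 and Lamc3 UMIs in hematopoietic-like cells. The gamma chain shares of granulosa groups rest on levels that were not told apart from background. Shares describe RNA and do not give the trimers that were made.

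**Figure D3:**
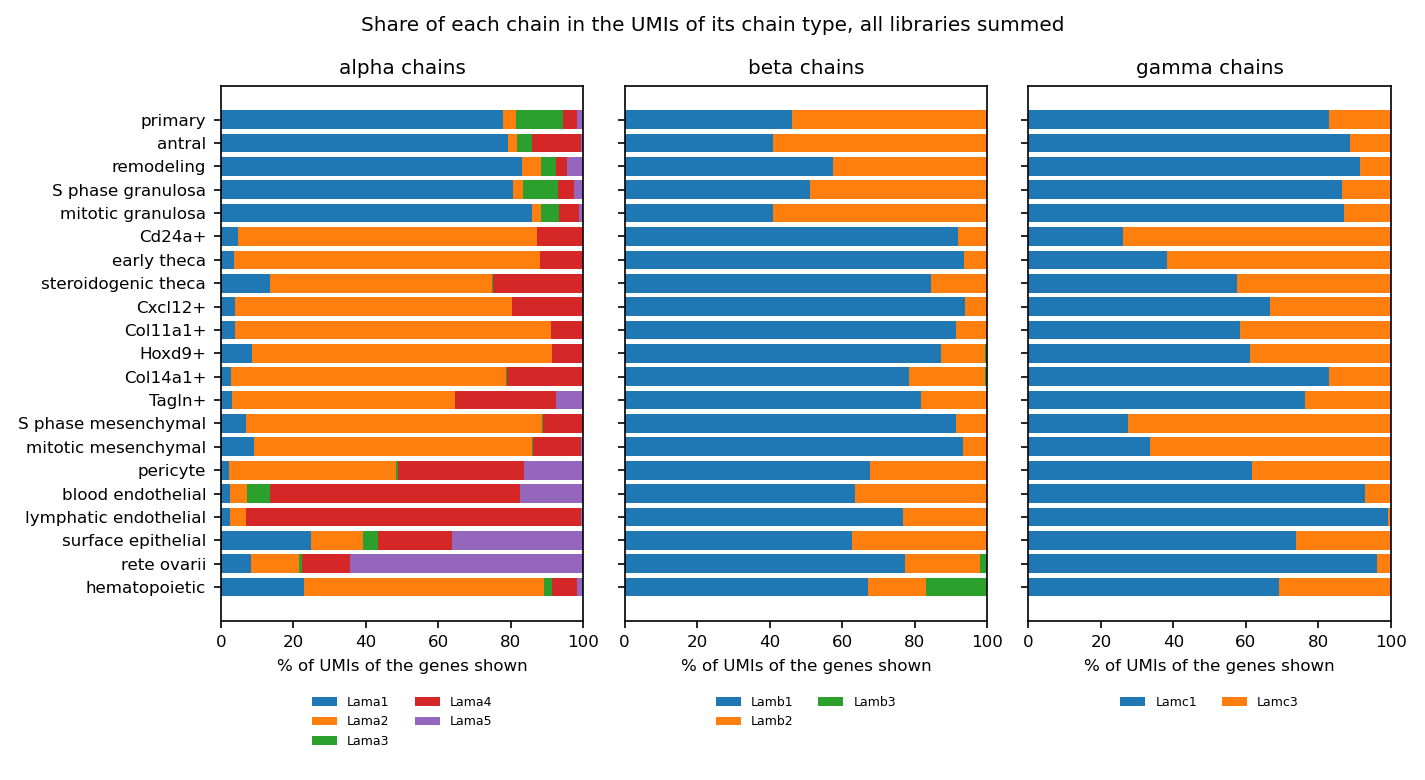
Share of each laminin chain gene in the UMIs of its chain type. Rows are cell groups, the x axis of each panel is the percentage of the UMIs of the alpha chains, of Lamb1, Lamb2 and Lamb3, or of Lamc1 and Lamc3, summed over libraries, and colours are genes. Lama1 fills most of the alpha bar in granulosa groups, Lama2 in mesenchymal groups and Lama4 in endothelial groups, and Lamc3 fills most of the gamma bar in Cd24a+, early theca and dividing mesenchymal cells.

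Differences between groups were tested on UMIs summed per group and library, with edgeR's quasi-likelihood test across all genes and a term for the library. A gene was called when the adjusted p was under 0.05 and the fold at least 2. As the library is a term, the p-values measure how differences between groups vary from library to library, and the libraries differ in age.

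Antral-like granulosa cells carry markers of large follicles with a fluid cavity, and primary-like cells those of small growing follicles. These groups were compared because no cluster carried the name primordial or secondary, a comparison chosen after the clusters were seen. Lama4 rose, Lama3 and Lama5 fell, and Lama1, the main alpha chain, differed by less than 2-fold. Lama3 went from 3.93, 16.3, 14.8, 19.3 and 16.3 CPM in primary-like cells to 1.74, 3.89, 2.93, 3.4 and 3.4 CPM in antral-like cells at 2, 3, 4, 5 and 6 wk, and was lower in 5 of 5 libraries (log2 fold change -2.04 ± 0.396 (SE), edgeR adjusted p = 1.91e-04). Lama4 went from 2.71, 4.3, 5.75, 2.71 and 4.27 CPM to 9.02, 12.9, 4.29, 11.6 and 14.2 CPM and was higher in 4 of 5 libraries, the exception being 4 wk (log2 fold change 1.49 ± 0.31 (SE), edgeR adjusted p = 4.12e-04). The primary-like levels were within or near the 1.36 to 4.54 CPM of hematopoietic-like cells, as was the antral-like level at 4 wk. Lama5 went from 1.14, 1.99, 1.29, 3.07 and 1.33 CPM to 1.04, 0, 0.338, 1.25 and 0.396 CPM (log2 fold change -1.62 ± 0.49 (SE), edgeR adjusted p = 0.0079), a change between levels near those of hematopoietic-like cells. Without the 3 wk library the Lama5 call was lost (log2 fold change -1.26, edgeR adjusted p = 0.0539, where the range over all alternatives was 0.00125 to 0.0539). Lama1 and Lamb1 passed the adjusted p but not the fold, with log2 fold changes of -0.35 and -0.55. Of 9 chains tested 3 were called, where 14.3% of all 12576 genes were. The median log2 fold change was -0.35 over the chains and 0.0055 over all genes.

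The genes that tie laminins into the matrix and to cells were counted from 2 lists, basement membrane partners (collagen IV chains, nidogens, Hspg2, Agrn, Col18a1, Col15a1, Ntn4 and Npnt) and laminin receptors (integrin subunits, Dag1 and Bcam). Unlike the laminin genes, these genes were not left out of the clustering. In antral-like against primary-like cells, 0 of 12 tested partners rose and 7 fell (median log2 fold change -1.56). Of 7 receptors, 2 rose and 3 fell (median -0.39). The median over all genes was 0.0055, and of all genes called 933 were higher and 871 lower. The partners with the largest change were Col18a1, which yields endostatin (log2 fold change -4.58), the laminin-binding netrin Ntn4 (log2 fold change -2.84) and the collagen IV chain Col4a3 (log2 fold change -2.19). Among receptors, the alpha 6 integrin Itga6 (log2 fold change -3.26) and the Lama5 receptor Bcam (log2 fold change -3.11) fell, and the collagen and laminin receptor Itga2 rose (log2 fold change 3.54).

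Remodeling-like cells, which carry genes of regressing follicles, had less Lama4 and more Lama5 and Lamb1 than antral-like cells. This comparison shares the antral-like sums with the one above. Lama4 was 3.41, 5.63, 1.46, 0.808 and 2.15 CPM in remodeling-like cells and lower than in antral-like cells in 5 of 5 libraries (log2 fold change -2.2 ± 0.33 (SE), edgeR adjusted p = 1.55e-05). The remodeling-like levels of Lama4 were within or near the 1.36 to 4.54 CPM of hematopoietic-like cells. Lama5 was 1.06, 2.73, 2.26, 3.92 and 3.39 CPM and higher in 5 of 5 libraries (log2 fold change 2.4 ± 0.45 (SE), edgeR adjusted p = 1.80e-04). Its mean was 2.67 ± 1.1 CPM in remodeling-like and 0.605 ± 0.522 CPM in antral-like cells, near the 0.618 ± 0.857 CPM of hematopoietic-like cells. The antral-like cells held 7 Lama5 UMIs at 5 wk and 0 at 3 wk. Lamb1 was 36.4, 28, 34.7, 38.7 and 36.3 CPM against 24.99, 10.8, 12.7, 18.4 and 20.9 CPM (log2 fold change 1.02 ± 0.15 (SE), edgeR adjusted p = 1.09e-05). Both were within or near the range of hematopoietic-like cells, 60.7, 15.2, 67.9, 24.98 and 28.6 CPM. The Lamb1 fold lay at the threshold, and it was 0.999 without the 3 wk library and 0.94 without the 4 wk library, so the call was lost in both. Lama1 and Lama3 did not pass, with log2 fold changes of -0.17 ± 0.12 (SE), edgeR adjusted p = 0.251, and 0.03 ± 0.46 (SE), edgeR adjusted p = 0.967. In all, 3 of 9 chains were called, beside 11.1% of all genes, and the median over the chains was 0.104. Here 9 of 12 tested partners rose and 0 fell (median log2 fold change 1.84). Of 7 receptors, 2 rose and 0 fell (median 0.55). The median over all genes was -0.024, and of all genes called 770 were higher and 625 lower. Ntn4 rose (log2 fold change 4.09), Col4a1 (log2 fold change 2.77) and Col4a2 (log2 fold change 2.47), and of the receptors Bcam rose (log2 fold change 2.5) and the alpha 3 integrin Itga3 (log2 fold change 2.11).

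At a finer resolution of the clustering, 414 cells met the rule for the primordial name, the flat granulosa cells of resting follicles. Lama1 averaged 73.6 ± 13.5 CPM there and 69.96 ± 11.3 CPM in primary-like cells (SD, n = 5 libraries). Lama3 averaged 11.3 ± 6.31 CPM there and 16.4 ± 7.04 CPM in primary-like cells. By edgeR 0 of 9 chains passed the adjusted p, and 1 (Lama2) had an unadjusted p under 0.05. Only 98 of 12256 genes (0.8%) were called, so differences under the spread left after the library term were not detectable here.

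Among mesenchymal cells each subtype was compared with the equal-weight mean of the other named subtypes, and 8 chains passed the filter on low counts, since Lama3 was at or below 0.722 CPM in the 8 subtypes. Cd24a+ cells, a stromal subtype that also carries Ramp3 and Plac8, had Lamc3 above the other subtypes. Their 194, 203, 248, 202 and 181 CPM were above the mean of the other subtypes in 5 of 5 libraries (log2 fold change 2.47 ± 0.14 (SE), edgeR adjusted p = 5.90e-19). Lama1, Lama2, Lama4 and Lamb1 were also higher, with adjusted p under 0.05 but folds under 2 (log2 fold changes 0.36 to 0.89). In all, 1 of 8 chains was called, beside 9.63% of all 12267 genes, and the median over the chains was 0.39; without the 5 wk library 2 were called. In Cd24a+ cells 3 of 14 tested partners rose and 1 fell (median log2 fold change 0.23), and 2 of 8 receptors rose and 0 fell (median -0.32), beside a median of 0.00050 over all genes. Col15a1 (log2 fold change 4.22) and Col4a1 (log2 fold change 1.92) rose and the integrin ligand Npnt fell (log2 fold change -1.82), and the receptors that rose were Itga6 (log2 fold change 1.3) and Itga7 (log2 fold change 1.28).

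Theca cells form the layer outside the follicle's basement membrane. Early theca-like cells, which carry the hedgehog target genes Hhip and Ptch1, also had Lamc3 above the other subtypes, at 98.9, 127, 139, 110.2 and 99.7 CPM (log2 fold change 1.55 ± 0.15 (SE), edgeR adjusted p = 1.38e-10). Lamb2 was lower without passing the fold (log2 fold change -0.69 ± 0.1 (SE), edgeR adjusted p = 8.56e-07). That made 1 of 8 chains called beside 4.54% of all genes (median over the chains 0.25). Here 0 of 14 tested partners rose and 1 fell (median log2 fold change -0.11), and 1 of 8 receptors rose and 0 fell (median 0.16), beside a median of -0.0049 over all genes. The called genes were Npnt (log2 fold change -1.78) and Itga2 (log2 fold change 1.71).

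Steroidogenic theca-like cells, which make androgen, carried more Lama1 than other mesenchymal cells. Lama1 was 32.9, 20.4, 25.8, 38.6 and 23.8 CPM in them, and 10.6, 8.04, 12.01, 7.75 and 9.005 CPM in early theca-like cells. The ranges did not overlap (log2 fold change 1.55 ± 0.18 (SE), edgeR adjusted p = 8.49e-10), and against the mean of all other subtypes the log2 fold change was 1.7 ± 0.12 (SE), edgeR adjusted p = 7.10e-16. Lamc3 was lower than in early theca-like cells in 5 of 5 libraries with a fold just under the threshold (log2 fold change -0.98 ± 0.22 (SE), edgeR adjusted p = 2.44e-04). Lama4 and Lamb2 were higher at log2 fold changes of 0.62 and 0.59, both under 2-fold. So 1 of 8 chains was called against early theca-like cells, beside 16.6% of all genes (median over the chains -0.25), and 1 of 8 against the other subtypes, beside 20.4% (median 0.090). Without the 2 wk library 3 chains were called against early theca-like cells, and 2 without the 3, 4 or 6 wk library.

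Among the matrix partners of the laminins, more fell than rose in steroidogenic theca-like cells, as was also so among all genes called. Over all genes, 809 were called higher and 1229 lower against early theca-like cells, and 840 and 1659 against the other subtypes. Against early theca-like cells 1 of 14 tested partners rose and 7 fell (median log2 fold change -1.18), and 1 of 8 receptors rose and 3 fell (median -0.59), beside a median of 0.011 over all genes. Col15a1 (log2 fold change -2.75), the nidogen Nid2 (log2 fold change -2.21) and Col4a4 (log2 fold change -2.13) fell most among the partners, and Itga1, a collagen and laminin receptor subunit, (log2 fold change -3.48), Itga7 (log2 fold change -2.1) and Itga2 (log2 fold change -1.97) among the receptors. Against the other subtypes 1 of 14 tested partners rose and 8 fell (median log2 fold change -1.57), and 0 of 8 receptors rose and 2 fell (median -0.63), beside a median of 0.022 over all genes. The called genes with the largest differences were Npnt (log2 fold change -3.33), Col15a1 (log2 fold change -2.9), Col4a6 (log2 fold change -2.8), Itga1 (log2 fold change -4.14) and Itga7 (log2 fold change -1.84).

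Tagln+ cells, the smooth muscle-like subtype, had the largest number of called chains among the subtypes. Lama5 rose, while Lama1, Lama2 and Lamc3 fell. Lama5 was 9.91, 10.3, 8.12, 10.8 and 6.34 CPM in Tagln+ cells, above every other subtype in every library (log2 fold change 3.68 ± 0.22 (SE), edgeR adjusted p = 7.38e-19). Lama2, although still the leading alpha chain of these cells, was 123, 92.2, 63.8, 42.9 and 52.4 CPM (log2 fold change -1.3 ± 0.15 (SE), edgeR adjusted p = 1.13e-09). Lama1 was 2.74, 3.38, 6.26, 2.21 and 3.6 CPM, below the 10.2 ± 2.53 CPM of hematopoietic-like cells (log2 fold change -1.66 ± 0.17 (SE), edgeR adjusted p = 1.90e-11). Lamc3 was 21.96, 26.2, 17.9, 9.45 and 7.79 CPM (log2 fold change -1.71 ± 0.197 (SE), edgeR adjusted p = 7.97e-10). Lamb1 and Lamc1 were lower and Lamb2 higher at under 2-fold (log2 fold changes -0.72, -0.38 and 0.37). Hence 4 of 8 chains were called beside 10.2% of all genes, with a median over the chains of -0.55. In Tagln+ cells 3 of 14 tested partners rose and 1 fell (median log2 fold change -0.14), and 3 of 8 receptors rose and 0 fell (median 0.76), beside a median of -0.016 over all genes. Npnt (log2 fold change 5.95) and Ntn4 (log2 fold change 1.83) rose and Col15a1 (log2 fold change -2.12) fell, and the receptors Itga1 (log2 fold change 2.56), Bcam (log2 fold change 1.36) and Itga7 (log2 fold change 1.21) rose.

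In Col14a1+ cells, with the adventitial fibroblast genes Pi16 and Clec3b, Lamb2 and Lama4 rose and Lamc3 fell. Lamb2 was 57.2, 66.1, 71.9, 53.7 and 41.1 CPM, above the mean of the other subtypes in 5 of 5 libraries (log2 fold change 1.22 ± 0.101 (SE), edgeR adjusted p = 5.54e-14). Lama4 was 39.6, 42.2, 73.5, 86.5 and 58.7 CPM (log2 fold change 1.02 ± 0.12 (SE), edgeR adjusted p = 2.14e-09), and its fold dropped to 0.96 and 0.903 on the log2 scale without the 2 wk and the 5 wk library, which ended the call. Lamc3 was 20.7, 20.1, 29.9, 17.7 and 23.5 CPM (log2 fold change -1.28 ± 0.25 (SE), edgeR adjusted p = 4.67e-05). Lamc1 was higher by under 2-fold (log2 fold change 0.78). The 3 of 8 chains called stood beside 12.4% of all genes, and the median over the chains was 0.104. Here 7 of 14 tested partners rose and 0 fell (median log2 fold change 0.96). Of 8 receptors, 1 rose and 0 fell (median 0.16). The median over all genes was -0.032, and of all genes called 1208 were higher and 319 lower. The partners led by Col15a1 (log2 fold change 4.86), Npnt (log2 fold change 3.24) and Col4a6 (log2 fold change 2.58) rose, and Itga2 was the receptor called, (log2 fold change 1.09).

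Hoxd9+ cells, which carry Wt1 and posterior Hox genes, had less Lama4, at 9.81, 13.7, 21.7, 16.95 and 18.2 CPM, lower than the mean of the other subtypes in 5 of 5 libraries (log2 fold change -1.23 ± 0.13 (SE), edgeR adjusted p = 5.39e-10). This was 1 of 8 chains called beside 6.05% of all genes (median over the chains -0.37). Lama1 in the same cells was higher by 0.69 on the log2 scale, under 2-fold. In Hoxd9+ cells 1 of 14 tested partners rose and 2 fell (median log2 fold change 0.14), and 1 of 8 receptors rose and 2 fell (median 0.057), beside a median of 0.0021 over all genes. The called genes were Col15a1 (log2 fold change -2.88), Ntn4 (log2 fold change 1.23), Col4a1 (log2 fold change -1.01), Itga2 (log2 fold change -1.57), Itga7 (log2 fold change -1.4) and Itga3 (log2 fold change 1.15).

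In Cxcl12+ and Col11a1+ cells no chain was called. By edgeR 0 of 8 chains passed in Cxcl12+ cells, where 4 had an unadjusted p under 0.05 and DESeq2 also called 0, beside 3.43% of all genes. Lamb1 was highest in these cells, yet its difference from the other subtypes was under 2-fold (log2 fold change 0.45 ± 0.08 (SE), edgeR adjusted p = 1.78e-05). In Col11a1+ cells 0 of 8 passed by edgeR, where 5 had an unadjusted p under 0.05 and DESeq2 called 0, beside 3.45% of all genes. Lama4 came closest (log2 fold change -0.901 ± 0.14 (SE), edgeR adjusted p = 5.43e-06) and 1 chain was called without the 4 wk library. The medians over the chains were -0.29 in Cxcl12+ and -0.23 in Col11a1+ cells. In Cxcl12+ cells 0 of 14 tested partners rose and 0 fell (median log2 fold change -0.030), and 0 of 8 receptors rose and 1 fell (median -0.16), beside a median of 0.0036 over all genes. The called gene was Itga3 (log2 fold change -1.42). In Col11a1+ cells 0 of 14 tested partners rose and 1 fell (median log2 fold change -0.41), and 0 of 8 receptors rose and 0 fell (median -0.24), beside a median of -0.015 over all genes. The called gene was Col15a1 (log2 fold change -2.16).

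**Figure D4:**
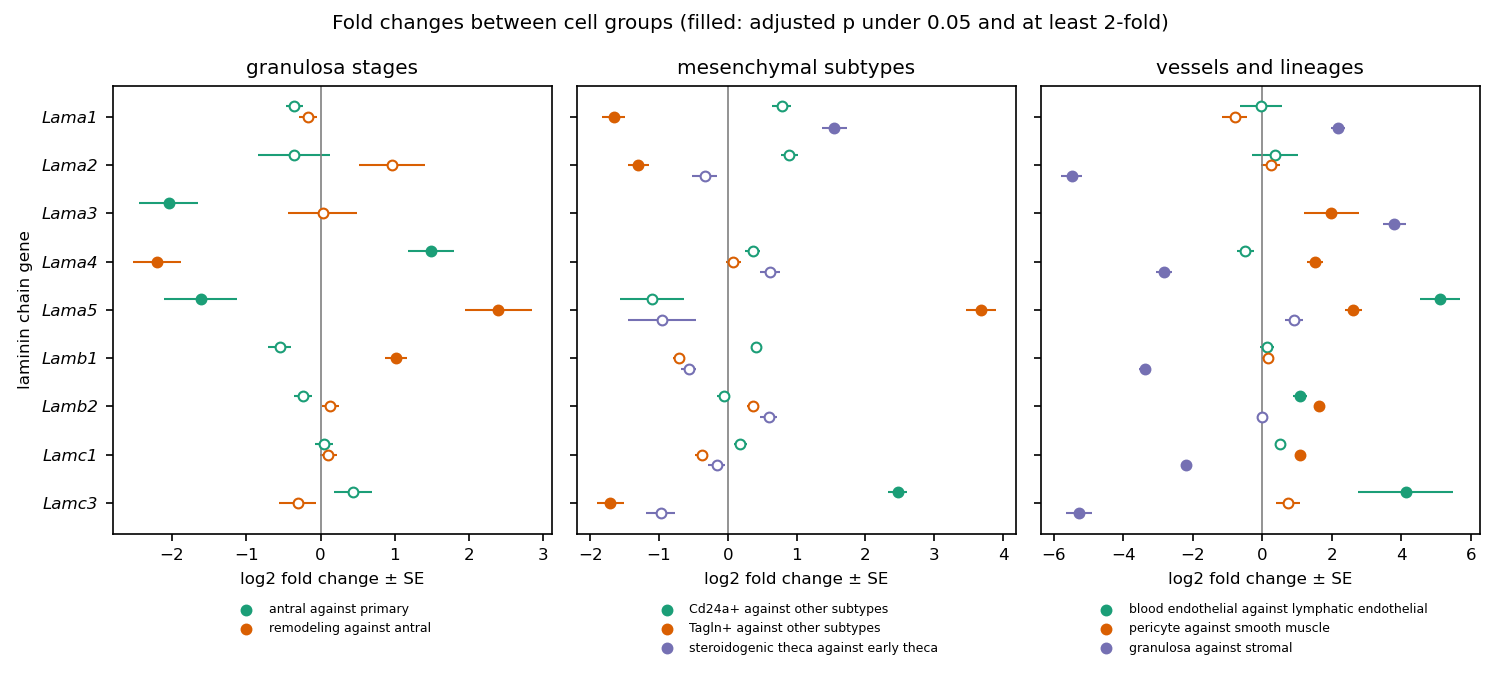
Log2 fold changes of the laminin chain genes with their standard errors in 8 of the comparisons. The x axis is the log2 fold change from edgeR, rows are genes, colours are comparisons, and filled points passed an adjusted p of 0.05 and a fold of 2. Lama3 is not drawn in the mesenchymal panel, where it was filtered out, nor in blood against lymphatic endothelial cells, where the lymphatic level was 0. Lama5 lies far right in Tagln+ cells and in the vessel comparisons, and Lamc3 far right in Cd24a+ cells.

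Vessel cells were compared within the endothelium and within the mural cells. Blood endothelial-like cells had more Lama5, Lama3, Lamb2 and Lamc3 than lymphatic endothelial-like cells. Lama5 was 78.5, 74.4, 40.4, 35.7 and 29.8 CPM at 2, 3, 4, 5 and 6 wk in the former and 2.22, 4.05, 0 and 0.96 CPM at 2, 3, 4 and 5 wk in the latter (log2 fold change 5.11 ± 0.57 (SE), edgeR adjusted p = 4.52e-09). Lama3 was 26.2, 3.1, 8.43, 15.9 and 10.1 CPM in blood and 0 in all 4 libraries of lymphatic endothelial-like cells. Against a floor of 3 UMIs over the lymphatic group it was at least 10.5-fold higher, and it was called by edgeR (adjusted p = 1.22e-05). Lamb2 was 116, 96.1, 119.6, 70.97 and 61.5 CPM against 42.2, 80.98, 23.6 and 46.1 CPM (log2 fold change 1.08 ± 0.205 (SE), edgeR adjusted p = 9.49e-05), and the log2 fold change without the 2 wk library was 0.98 and without the 4 wk library 0.83. Lamc3 was 30.5, 37.2, 35.4, 5.88 and 7.16 CPM against 0, 0, 2.63 and 0.96 CPM (log2 fold change 4.12 ± 1.38 (SE), edgeR adjusted p = 0.028). At 5 and 6 wk the blood endothelial-like levels of Lamc3 were within the 1.73 to 12.2 CPM of hematopoietic-like cells. With 2 Lamc3 UMIs in all in the lymphatic cells, the call was lost without the 2, 3 or 4 wk library, with edgeR adjusted p = 0.0911, 0.094 and 0.096 (6.94e-04 to 0.096 over all alternatives). Lama4 was lower in blood than in lymphatic endothelial-like cells in 4 of 4 libraries without passing the test (log2 fold change -0.495 ± 0.25 (SE), edgeR adjusted p = 0.182). Of 9 chains 4 were called, beside 13.3% of 12837 genes, with a median over the chains of 0.52; without the 2 wk or the 4 wk library 2 were called. Of the lists, 5 of 14 tested partners rose and 0 fell (median log2 fold change 0.45). Of 9 receptors, 3 rose and 1 fell (median 0.58). The median over all genes was 0.034, and of all genes called 962 were higher and 749 lower. Col15a1 (log2 fold change 4.76), the perlecan gene Hspg2 (log2 fold change 2.96) and Col4a2 (log2 fold change 1.72) were higher in blood endothelial-like cells, as were Itga2 (log2 fold change 5.44) and Bcam (log2 fold change 5.22), while the beta 4 integrin Itgb4 was lower (log2 fold change -1.18).

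Pericyte-like cells, the contractile cells that wrap small vessels, had more Lama4, Lama5, Lamb2 and Lamc1 than smooth muscle-like cells. Of the 5065 smooth muscle-like cells, 850 were in a cluster that carried 5 smooth muscle markers but whose top 10 genes by fold were cell-cycle genes. Lama5 was 65.4, 69.7, 44.9, 31.96 and 28.2 CPM in pericyte-like and 6.77, 7.8, 6.12, 7.78 and 5.75 CPM in smooth muscle-like cells (log2 fold change 2.62 ± 0.24 (SE), edgeR adjusted p = 1.32e-11). Lamb2 was 121, 126, 116, 90.5 and 67.3 CPM against 32.2, 38.99, 35.5, 27.6 and 19.2 CPM (log2 fold change 1.64 ± 0.15 (SE), edgeR adjusted p = 9.63e-12). Lama4 was 91.7, 119, 104, 81.1 and 83.1 CPM against 19.8, 23.7, 39.97, 36.6 and 33.8 CPM (log2 fold change 1.52 ± 0.23 (SE), edgeR adjusted p = 1.06e-06). All 3 were higher in 5 of 5 libraries and their ranges did not overlap between the groups. Lamc1 was also higher in 5 of 5 libraries (log2 fold change 1.09 ± 0.13 (SE), edgeR adjusted p = 8.57e-09). Lama3, at 1.28 ± 0.95 CPM against 0.246 ± 0.143 CPM, was called at the threshold (log2 fold change 1.98 ± 0.795 (SE), edgeR adjusted p = 0.0487), and leaving out any 1 library ended this call, with edgeR adjusted p of 0.059 to 0.162 (0.0188 to 0.162 over all alternatives). The Lama3 level of hematopoietic-like cells was 1.03 ± 1.4 CPM, so that of pericyte-like cells, from 7 UMIs in all, was read as background. Lama2 and Lamb1 did not pass, with log2 fold changes of 0.24 ± 0.27 (SE), edgeR adjusted p = 0.537, and 0.15 ± 0.17 (SE), edgeR adjusted p = 0.538. The 5 of 9 chains called stood beside 17.5% of all genes, and the median over the chains was 1.08. Without the cluster led by cell-cycle genes, 6 of 9 were called beside 20.1% of all genes. The chain added was Lamc3, with a log2 fold change of 2.07 ± 0.35 (SE) and an edgeR adjusted p = 7.77e-06, against 0.74 ± 0.34 (SE), edgeR adjusted p = 0.0852 with all cells, and Lama5 had 2.12. Of the lists, 5 of 14 tested partners rose and 5 fell (median log2 fold change 0.033), and 4 of 9 receptors rose and 0 fell (median 0.62), beside a median of -0.019 over all genes. Col18a1 (log2 fold change 4.39) and Col15a1 (log2 fold change 2.83) rose and Npnt fell (log2 fold change -2.45), and the receptors that rose most were Bcam (log2 fold change 5.03), Itga7 (log2 fold change 4.87) and Itga1 (log2 fold change 1.18).

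Across the follicle boundary, granulosa-like cells carried more Lama1 and Lama3 than stromal-like cells and less of 5 other chains. Lama1 was 57.9, 61.7, 71.2, 64.4 and 62.4 CPM in granulosa-like and 14.3, 10.7, 17.5, 11.03 and 10.1 CPM in stromal-like cells (log2 fold change 2.18 ± 0.21 (SE), edgeR adjusted p = 1.00e-11). Lama3 was 3.34, 9.4, 3.93, 6.12 and 5.77 CPM against 0.254, 0.466, 0.286, 0.385 and 0.353 CPM (log2 fold change 3.8 ± 0.33 (SE), edgeR adjusted p = 3.46e-12). Lama2 and Lamc3 had the largest differences the other way, with log2 fold changes of -5.49 ± 0.31 (SE), edgeR adjusted p = 3.28e-18 and -5.29 ± 0.37 (SE), edgeR adjusted p = 2.46e-15, where the granulosa levels were read as background. Lamb1 was 28.6 ± 5.01 CPM against 263 ± 18.7 CPM (log2 fold change -3.38 ± 0.17 (SE), edgeR adjusted p = 2.71e-19). Lama4 and Lamc1 fell with log2 fold changes of -2.84 and -2.19, and Lama5 was higher by under 2-fold (0.902). Lamb2 was 26.8 ± 4.08 CPM against 24.5 ± 4.6 CPM and did not pass (log2 fold change -0.02 ± 0.13 (SE), edgeR adjusted p = 0.927). The 7 of 9 chains called stood beside 29.7% of all genes, and the median over the chains was -2.19. Of the lists, 2 of 14 tested partners rose and 9 fell (median log2 fold change -2.36). Of 9 receptors, 4 rose and 2 fell (median 0.88). The median over all genes was 0.019, and of all genes called 1547 were higher and 2260 lower. Col15a1 (log2 fold change -6.65), Nid1 (log2 fold change -5.22) and Col4a1 (log2 fold change -4.8) fell most, and of the receptors Itga1 fell (log2 fold change -2.76) while Itga6 (log2 fold change 2.17) and Itga2 (log2 fold change 2.17) rose.

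Surface epithelial-like cells, the single layer that covers the ovary, had more Lama5 and Lama3 than stromal-like cells and less of 4 other chains. Lama5 was 39.2, 65.3, 45.1, 30.9 and 32.2 CPM against 0.458, 1.36, 0.857, 0.722 and 0.883 CPM (log2 fold change 5.3 ± 0.3 (SE), edgeR adjusted p = 1.55e-17). Lama3 was 3.77, 5.94, 5.64, 3.56 and 5.69 CPM against 0.254, 0.466, 0.286, 0.385 and 0.353 CPM (log2 fold change 3.44 ± 0.598 (SE), edgeR adjusted p = 1.11e-05). The Lama3 levels of surface epithelial-like cells came from 15 UMIs in all. At 3 and 4 wk they lay below a floor of 3 UMIs, which was 8.91 and 8.46 CPM. Lama2, Lamc3, Lamb1 and Lamc1 fell, with log2 fold changes of -4.11, -3.17, -2.02 and -1.23. Lama1 and Lamb2 were higher in 5 of 5 libraries at under 2-fold (log2 fold changes 0.86 and 0.76). The 6 of 9 chains called stood beside 24.5% of all genes (median over the chains -0.76). Of the lists, 5 of 14 tested partners rose and 7 fell (median log2 fold change -0.98), and 4 of 9 receptors rose and 1 fell (median 0.98), beside a median of -0.101 over all genes. Npnt rose (log2 fold change 3.46), Col15a1 (log2 fold change -3.29) and Nid1 (log2 fold change -2.91) fell, and Bcam (log2 fold change 7.6), Itga3 (log2 fold change 4.64) and Itgb4 (log2 fold change 4.29) led the receptors that rose.

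Blood endothelial-like cells differed from granulosa-like cells in every chain. Lama1 was lower (log2 fold change -3.25 ± 0.32 (SE), edgeR adjusted p = 2.08e-11) and the other 8 were higher. Lama4 was 177, 251, 175, 144 and 181 CPM against 4.51, 6.46, 4.01, 4.02 and 6.22 CPM (log2 fold change 5.15 ± 0.25 (SE), edgeR adjusted p = 4.63e-20), and Lama5 had a log2 fold change of 4.75 ± 0.25 (SE), edgeR adjusted p = 5.34e-19. Lamc1, Lamb1 and Lamb2 had log2 fold changes of 3.34, 2.44 and 1.73. Lamc3, Lama2 and Lama3 had 2.57, 1.54 and 1.4. Lamc3 in blood endothelial-like cells was above all libraries of hematopoietic-like cells at 2, 3 and 4 wk only. Lama2 in blood endothelial-like cells was 19.9 ± 16.2 CPM, no higher than the 27.04 ± 11.2 CPM of hematopoietic-like cells. Lama3 was higher in 4 of 5 libraries with overlapping ranges. Primary-like cells alone averaged 14.1 CPM of Lama3 against 12.7 CPM in blood endothelial-like cells, and were above them in 4 of 5 libraries. The blood endothelial-like value at 3 wk came from 1 Lama3 UMI. The Lama2 call was lost when doublets were left out (log2 fold change 1.06, edgeR adjusted p = 0.0715, the highest of all alternatives, which began at 9.23e-06). All 9 of 9 chains were called, beside 33.4% of all genes (median over the chains 2.44). Of the lists, 9 of 14 tested partners rose and 2 fell (median log2 fold change 3.63). Of 9 receptors, 5 rose and 1 fell (median 1.23). The median over all genes was -0.089, and of all genes called 2516 were higher and 1774 lower. Npnt (log2 fold change 6.68), Col15a1 (log2 fold change 6.29) and Col4a2 (log2 fold change 5.57) rose most, and the receptors Itgb4 (log2 fold change 4.88), Bcam (log2 fold change 3.93) and Itga1 (log2 fold change 3.81).

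Ages were compared within 4 groups of cells, as ratios of 5 wk over 2 wk with exact 95% intervals for counting error. With 1 library per age there is no test, and a ratio was called past the fold at 2 or more or at 0.5 or less. In antral-like cells Lama1 was lowest at 2 wk, with 26.4, 49.1, 65.9, 73.3 and 68.1 CPM at 2, 3, 4, 5 and 6 wk and a ratio of 2.78 (2.17 to 3.6). In the 2 clusters of the group the ratios were 2.26 (1.59 to 3.3) and 3.5 (2.47 to 5.06), and against 3 wk the ratio was 1.49 (1.27 to 1.76). With every cell given the same weight, the Lama1 ratio was 1.57. Lamb2 was highest at 2 wk, with 42.7, 23.7, 18.6, 20.03 and 27.9 CPM, a ratio of 0.469 (0.36 to 0.611) and 0.844 (0.645 to 1.1) against 3 wk. Within the 2 clusters the Lamb2 ratios were 0.556 (0.345 to 0.906) and 0.502 (0.361 to 0.695), and at resolution 0.6 of the clustering the ratio was 0.72, none of them past the fold. Lama2 and Lamc3 had ratios of 0.0418 (0.00824 to 0.132) and 0.218 (0.0972 to 0.457), but their antral levels, at most 12.8 and 9.02 CPM, were within or near the range of hematopoietic-like cells and were read as background. In all, 4 of the 8 chains that could be counted were past the fold, beside 10.9% of 10869 genes with at least 20 UMIs over both ages. Against 3 wk, 0 of 6 were. The paper's whole-mount counts held no antral follicles at 2 wk, although it scored granulosa clusters at 2 wk as antral. The antral-like group held 185 cells at 2 wk, and whether their stage differed from that at later ages was not tested.

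In stromal-like cells Lama4 was the member past the fold, at 15.8, 24.9, 53.6, 40.9 and 33.4 CPM, with a ratio of 2.59 (2.33 to 2.88). The peak was at 4 wk, the ratio was 2.12 (1.92 to 2.34) at 6 wk over 2 wk and 1.64 (1.48 to 1.82) at 5 wk over 3 wk. Lama2 was 224, 183, 218, 187 and 167 CPM, Lamb1 265, 236, 289, 268 and 259 CPM and Lamc3 84.04, 99.7, 128, 87.8 and 77.98 CPM, all with ratios between 0.5 and 2. That was 1 of the 8 chains with at least 20 UMIs, beside 10.5% of genes.

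In steroidogenic theca-like cells Lama4 was also higher at 5 wk, at 23.4, 44.97, 82.3, 67.8 and 36.8 CPM, with a ratio of 2.89 (2.24 to 3.79). Lama2, Lamc3 and Lamb1 were lower at 5 wk than at every other age. Lamb1 was 210, 211, 213, 107 and 232 CPM, with a ratio of 0.51 (0.462 to 0.563) at 5 wk, not past the fold, and 1.1 (0.986 to 1.23) at 6 wk. Lama2 was 194, 236, 228, 68.1 and 225 CPM, with a ratio of 0.352 (0.316 to 0.393) at 5 wk and 1.16 (1.04 to 1.31) at 6 wk. Lamc3 was 78.7, 86.5, 80.7, 14.9 and 69.3 CPM, with a ratio of 0.189 (0.155 to 0.231) at 5 wk and 0.881 (0.724 to 1.07) at 6 wk. The group was made of 2 clusters, and 475 of the 860 cells of the first came from the 5 wk library. Within that cluster the Lamc3 ratio was 0.079 (0.0502 to 0.123) and the Lama2 ratio 0.366 (0.298 to 0.454). Within the other cluster they were 0.619 (0.495 to 0.773) and 0.752 (0.658 to 0.859), and 0 chains were past the fold. With cells filtered strictly on genes and mitochondrial UMIs, the Lama2 ratio was 0.51, not past the fold, and the Lamc3 ratio 0.32. Of the 7 chains with at least 20 UMIs, 3 were past the fold beside 22.4% of genes, and 0 of 7 were at 6 wk over 2 wk.

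In blood endothelial-like cells Lama5 was higher at 2 and 3 wk than at the later ages, at 78.5, 74.4, 40.4, 35.7 and 29.8 CPM, with a ratio of 0.454 (0.344 to 0.606) at 5 wk and 0.38 (0.259 to 0.553) at 6 wk. Lama4 was 177, 251, 175, 144 and 181 CPM, and Lamc1 212, 198, 128, 144 and 160.0 CPM, with ratios of 0.818 (0.689 to 0.975) and 0.679 (0.579 to 0.7997). Lama2 and Lamc3, the chains of mesenchymal cells, had ratios of 0.117 (0.0685 to 0.196) and 0.193 (0.111 to 0.335) at levels up to 43.6 and 37.2 CPM. Mean Lama2 was 19.9 ± 16.2 CPM here and 27.04 ± 11.2 CPM in hematopoietic-like cells, so it was not told apart from background. Lamc3 was 5.88 and 7.16 CPM here at 5 and 6 wk, within the 1.73 to 12.2 CPM of hematopoietic-like cells. The group held 916754 UMIs in 119 cells at 2 wk and 5100570 in 267 cells at 5 wk, and an effect of this depth was not tested. The blood endothelial-like cells had 3 of 9 chains past the fold, Lama2 among them, beside 13.4% of genes.

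**Figure D5:**
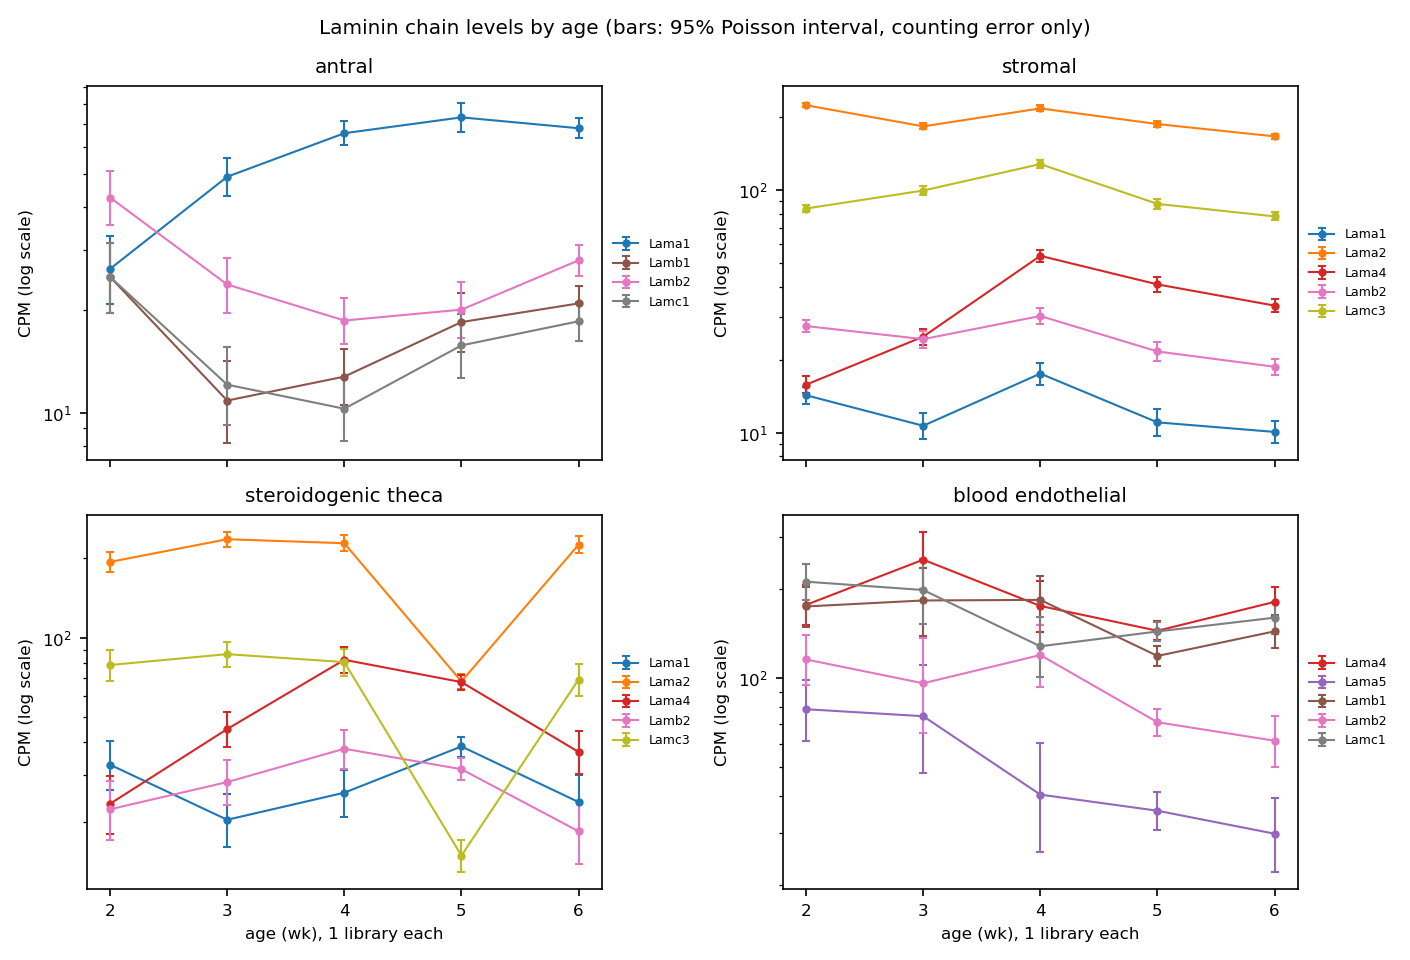
Levels of selected laminin chain genes by age in 4 cell groups. The x axis is age in weeks with 1 library each, the y axis is CPM on a log scale, bars are 95% Poisson intervals for counting error, and colours are genes. Lama1 in antral cells is higher at 3 to 6 wk than at 2 wk, Lama5 in blood endothelial cells is lower at 4 to 6 wk than at 2 and 3 wk, and Lama2 and Lamc3 in steroidogenic theca cells dip at 5 wk.

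The genes whose pattern was most like that of each member were found over the 21 groups, as Pearson's r of log2(CPM + 1) among 10839 genes with a mean of at least 5 CPM, laminins left out. The groups share libraries and depth, and the values are a description. Lama2 was most like Egflam (0.98), Twist1 (0.98) and Arhgap24 (0.98), and Lamb1 most like Eva1b (0.97), Fbn1 (0.96) and Nid1 (0.95), where Nid1 encodes nidogen, which binds the laminin gamma chain. Lamc3 was most like Enpep (0.98), Akr1b8 (0.95) and Gli1 (0.94), of which Gli1 is a target of hedgehog signalling. Lama5 was most like Bcam (0.95), Cd200 (0.896) and Sox6 (0.89), and Bcam encodes a receptor for the Lama5 chain. Lama1 was most like Smyd5 (0.94), Ubfd1 (0.93) and Sbk1 (0.92), and Lama3 most like Irx3 (0.89), Tdrp (0.88) and Irx5 (0.87). Lama4 was most like Kctd17 (0.95), Hoxb4 (0.92) and Hoxa7 (0.899), Lamb2 most like Cttnbp2 (0.86), Fzd4 (0.83) and Map4k3 (0.82), and Lamc1 most like Atg4a (0.94), Kctd17 (0.94) and Klf12 (0.94). Among the members themselves, Lama4 and Lamc1 were most alike (r = 0.94), followed by Lama2 and Lamb1 (r = 0.91) and Lama2 and Lamc3 (r = 0.89), and Lama1 and Lamc1 were least alike (r = -0.77).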

How the data were processed

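Gene by cell matrices of 5 libraries were analysed as deposited. Their values are raw counts of UMIs, which the authors made with Cell Ranger 3.1.0 (2, 3 and 4 wk) or 6.0.1 (5 and 6 wk) on mm10, and the authors' own clustering used Seurat 4.1.0. The versions come from the submitters' processing notes. The deposited matrices hold filtered barcodes, and no further filter on cells was applied. Doublets were called with Scrublet in scanpy 1.11.5 (1487 cells), were kept, and were left out in an alternative.

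Libraries were integrated with Seurat 5.3.0 in R 4.3.3 (2000 variable genes with all laminin genes removed, 30 of 50 principal components, 20 neighbours, resolution 1), and granulosa-like and mesenchymal cells were clustered a second time in the same way. A cluster was named when at least 3 markers of a list were found in at least 10% of its cells and at 1.5-fold or more over the median cluster, with at least 30 cells, under 25% doublets, not over 90% of its cells from 1 library, and a UMI ratio not under 33.3%. A cluster also stayed unnamed when its 10 leading genes by fold held more markers of another type than of its own. By this rule granulosa clusters of 667 and 554 cells, which scored best as antral, stayed unnamed. In the second clustering a mean z of at least 0.5 was also asked. All of these limits were chosen with the clusters in view. The members and all gene lists were chosen with earlier results of these data known.

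UMIs were summed per group and library with at least 20 cells, filtered with filterByExpr, scaled by TMM and tested with edgeR 4.0.16 (quasi-likelihood, library as an additive term, Benjamini-Hochberg adjustment over all genes tested). In all 16 contrasts were tested, which share libraries and, in part, groups. The SE is the log2 fold change over the square root of F. Intervals are exact Poisson, conditional or Clopper-Pearson intervals at 95% (scipy 1.17.1) and cover counting error only. To compare shares of cells, each cell was thinned to 2000 UMIs, and 5242 shallower cells were left out. Each step across all genes was tested on simulated data first.

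The 9 members were always named, Lamb3 once, and of 14 basement membrane partners and 9 laminin receptors at most the 3 called genes with the largest change in each contrast. The 3 genes most like each member were named by Pearson's r. The contrast of antral-like with primary-like cells, the ratios within single clusters, the smooth muscle-like group without 1 cluster and the gamma chain shares without each library were added after the clusters were seen. No same-strand gene of the matrices overlaps a member in the annotation of GRCm38.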

Additional observations from a re-analysis of the deposited data

How the results depend on the processing

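The 14 listed alternatives, the ratios within clusters and the smooth muscle-like group without its cell-cycle cluster left most results where they were. Of 691 repeats of a called chain's log2 fold change, 666 kept the direction and the call and 25 kept the direction but lost the call, and the calls lost without 1 library are given with their comparisons. Other lost calls were Lamb1 in remodeling-like against antral-like cells (log2 fold change 0.93 with laminin genes kept in the clustering, 0.89 at resolution 0.6 and 0.96 at 1.4), Lama4 in Col14a1+ cells (0.97 with no filter, 0.98 with no library term), Lamb2 in blood against lymphatic endothelial-like cells (0.98 with a strict cell filter) and Lamc1 in surface epithelial-like cells (-0.96 with no TMM factors). With no filter Lama3 lost its call in pericyte-like cells (edgeR adjusted p = 0.0772), and with doublets left out Lamc3 lost it in blood against lymphatic endothelial-like cells (edgeR adjusted p = 0.0617).

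The count of called chains in steroidogenic against early theca-like cells was 2 with laminin genes kept in the clustering, 2 at resolution 1.4 and 2 with no filter, and 1 to 3 when 1 library was left out. With no filter it was 2 in steroidogenic theca-like cells against the other subtypes. Leaving out 1 library gave 1 to 2 in Cd24a+ cells, 0 to 1 in Col11a1+ cells and 2 to 4 in blood against lymphatic endothelial-like cells. With no filter, 1879 genes were called in Tagln+ cells (main 1246) and 6633 in granulosa-like against stromal-like cells (main 3807), as more genes were tested. Chains past 2-fold between ages numbered 0 at 5 wk over 3 wk in antral-like and in stromal-like cells, 1 and 2 within the antral clusters, 0 at 6 wk over 2 wk and 0 within the smaller cluster in steroidogenic theca-like cells, and 6 in blood endothelial-like cells with equal weight of cells. The Lama2 ratio in steroidogenic theca-like cells was reversed at 6 wk over 2 wk, at 1.16. The cause was not tested.

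Comparisons between cell groups were paired by library, as the library was a term of each fit, and without that term the one call lost was that of Lama4 in Col14a1+ cells. Ages could not be paired, with 1 library each. Lama3 and Lama5 are limited by low counts in mesenchymal groups and in lymphatic endothelial-like cells, where a library held few or no UMIs. Having 1 library per age limits every comparison of ages.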
